A study of Mus musculus with 8 samples.

Results

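The genes of the 4 JAK kinases (Jak1, Jak2, Jak3 and Tyk2) and of 4 STAT transcription factors (Stat3, Stat5a, Stat5b and Stat6) were examined in clones of 32D, an IL-3-dependent mouse myeloid cell line. These 8 genes were taken by their symbols from a table of 56748 genes. All 8 passed the expression filter, an FPKM (fragments per kilobase of gene, scaled to the size of the library) of 1 or more in 2 or more libraries, which 11818 genes of the table passed. Bulk RNA was measured in 8 libraries, 2 clones for each of 4 groups, and the question was how loss of the glucose transporters GLUT1 and GLUT3 acts in cells with wild-type or mutant Jak2. The groups were Jak2WT GLUT1/3 WT, Jak2WT GLUT1/3 dKO, Jak2V617F GLUT1/3 WT and Jak2V617F GLUT1/3 dKO, where dKO stands for CRISPR-Cas9 editing of both Slc2a1 and Slc2a3. All 4 groups shared a transduced murine Jak2, either the wild-type or the V617F form, so that the wild-type background is itself a line with added Jak2. Before RNA was taken, every clone spent 24 h in medium that held IL-3 at 2 ng/ml, glutamine at 1 mM and glucose at 5 mM. Each library was 1 clone grown from single-cell dilution and labelled clone 1 or clone 3, and differences between clones of a group can thus be clonal as well as technical. The study's methods place another single-cell dilution before the first round of editing. The study's list of edits gives an Slc2a1 deletion of the same size for every dKO clone of a background. Clones of a group may thus share a founder. The spread between them may not measure how separately transduced lines or separately edited cells differ.

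JAK kinases are tyrosine kinases that sit on the inner tails of cytokine receptors. When a cytokine joins the receptor chains, the kinases phosphorylate each other and the receptor, STAT proteins dock there and are phosphorylated in turn, and paired STATs enter the nucleus and bind DNA. JAK2 serves the receptors for erythropoietin, IL-3 and GM-CSF. JAK1 works with many interleukin and interferon receptors, JAK3 with the common gamma chain, and TYK2 with the receptors for type I interferon and IL-12. The V617F change lies in the pseudokinase domain of JAK2, which normally restrains the kinase domain, and is the most frequent driver of myeloproliferative neoplasms.

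The codon changed in the mutant is shown in the mouse reference beside the matching codons of the other JAK genes, because the whole series is built on it. The coding sequences were those of GENCODE on GRCm39, read 5′ to 3′ on the coding strand, with 20 bases on each side, and capitals mark the codon. The matching positions came from an alignment of the translated sequences.
Jak1: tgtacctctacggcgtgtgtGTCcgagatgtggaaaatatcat
Jak2: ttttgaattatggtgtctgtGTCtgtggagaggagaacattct
Jak3: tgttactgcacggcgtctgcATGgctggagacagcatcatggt
Tyk2: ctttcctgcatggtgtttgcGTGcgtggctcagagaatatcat
The Jak2 codon, number 617 and valine, lay at chr19:29272328-29272330 on the plus strand, in exon 13 of 24. It matched valine 657 of Jak1 in exon 14 of 25, at chr4:101020868-101020870 on the minus strand, and valine 675 of Tyk2 in exon 14 of 25, at chr9:21026501-21026503 on the minus strand. In Jak3 the position held a methionine, number 588, at chr8:72135616-72135618 on the plus strand, in exon 13 of 24. In each of the 4 genes the window ran on across the junction into the next exon. The translated JAK sequences were 42.4% to 49.1% identical over their aligned residues, and no stretch of 150 bases was shared between their transcripts. Stat5a and Stat5b were 93.5% identical, and 175 windows of 150 bases, 4.59% of those in the Stat5a transcript and 3.54% of those in the Stat5b transcript, occurred in both, so reads from there could be placed on either gene. FPKM is a value for a whole gene. It carries no base calls, and endogenous and transduced Jak2 cannot be told apart in it.

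The edited genes were lower in every dKO clone than in every clone with intact transporters. Slc2a1, the gene of GLUT1, was at 44.7 and 48.4 FPKM in Jak2WT GLUT1/3 WT, 9.17 and 9.47 in Jak2WT dKO, 53.0 and 64.0 in Jak2V617F GLUT1/3 WT and 12.7 and 17.3 in Jak2V617F dKO, lower clone first. Slc2a3, the gene of GLUT3, was in the same order at 91.9 and 97.7, 16.0 and 49.5, 166 and 198, and 23.8 and 48.2 FPKM. Markers of other blood lineages moved with the groups as well. The summed FPKM of 10 erythroid markers was 94.0 to 112 in Jak2WT GLUT1/3 WT, 246 to 291 in Jak2WT dKO, 553 to 910 in Jak2V617F GLUT1/3 WT and 2582 to 4679 in Jak2V617F dKO, and that of 6 megakaryocyte markers was 65.0 to 65.7, 89.4 to 94.3, 183 to 193 and 194 to 249. The sums of 12 myeloid markers were 196 to 221, 144 to 179, 165 to 168 and 80.4 to 81.8, in the same order of groups. Most of each myeloid sum was Csf2rb, with means of 176, 132, 129 and 52.1 FPKM. Other myeloid markers had other orders, with means of 8.66, 4.46, 9.49 and 7.57 for Prtn3 and 6.72, 8.20, 8.82 and 8.44 for Il3ra. Spi1 had means of 17.1, 16.5, 19.5 and 12.8. The sums of 7 macrophage and dendritic cell markers were 57.1 to 57.7, 64.5 to 72.9, 52.2 to 68.1 and 22.0 to 26.5. Those of 8 mast cell and basophil markers were 202 to 218, 167 to 222, 156 to 164 and 121 to 162. The 10 lymphoid markers summed to at most 0.809 FPKM. Of the defining markers of a myeloid line, Prtn3 (3.11 to 10.2 FPKM) and Spi1 (11.1 to 19.8 FPKM) were present while Kit and Cebpa were listed at 0 and Mpo, Elane, Ctsg, Cd34 and Csf3r at no more than 0.203 FPKM in any library. The part of these shifts in the differences of the JAK and STAT genes was not tested. In bulk RNA fewer cells of a kind and less RNA per cell cannot be told apart.

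Jak2 had the highest FPKM of the 8 genes in every library, ranking 136 to 320 among the 11818 genes. Jak1 came next in every group. Between 651 and 60444 reads stood behind each value of the 8 genes, and libraries held 16846011 to 48884329 reads on genes. In Jak2WT GLUT1/3 WT cells Stat3 and Stat5b overlapped in FPKM, as did Jak3 and Tyk2, and in Jak2WT dKO cells Stat5a and Jak3 overlapped. In Jak2V617F GLUT1/3 WT cells Jak1 and Stat3 overlapped. In the Jak2V617F dKO cells no neighbours in the order overlapped, and the order was Jak2, Jak1, Stat3, Stat6, Jak3, Stat5b, Stat5a and Tyk2. FPKM is per length of gene, which allows this ranking of levels, although 2 clones a group define the spread poorly.

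**Figure D1:**
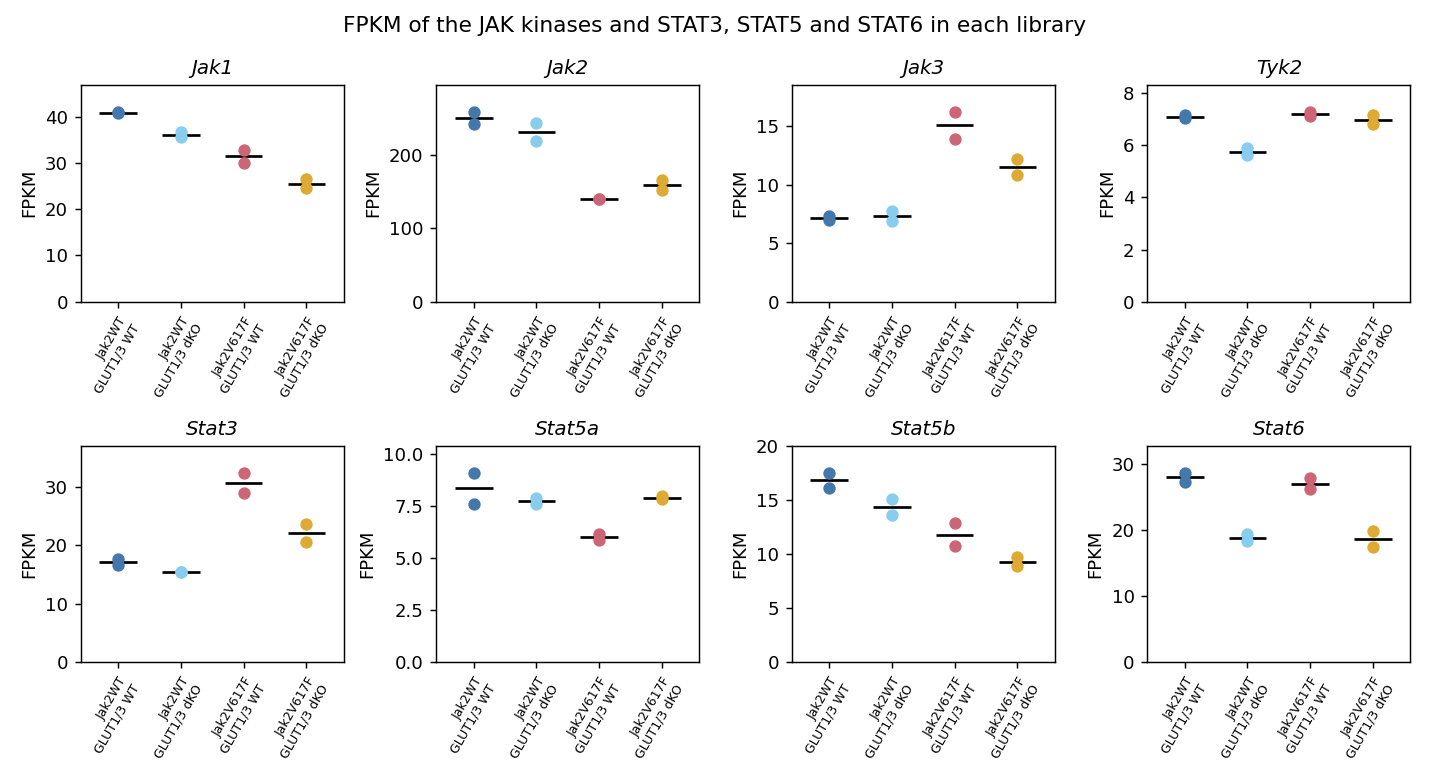
FPKM (vertical axis, from 0, a scale per panel) of the 8 genes in each of the 8 libraries; points are clones, bars the mean of the 2 clones, and columns the 4 groups. Jak2 and Stat5b sat lower and Jak3 and Stat3 higher in both Jak2V617F groups, whereas Stat6 was lower in both dKO groups.

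Differences between groups were tested with limma on log2(FPKM + 1) across the 11818 genes, and a gene was called at a Benjamini-Hochberg adjusted p under 0.05. In the Jak2V617F against Jak2WT comparison with intact transporters, 2 of the 8 genes rose (Jak3 and Stat3) and 4 fell (Jak2, Jak1, Stat5b and Stat5a), against 15.3% of all tested genes called higher and 14.9% called lower. Between the dKO groups, 2 rose in Jak2V617F (Jak3 and Stat3) and 3 fell (Jak1, Jak2 and Stat5b), against 7.12% and 9.96% of all tested genes. On loss of GLUT1/3 in Jak2V617F cells, Stat5a rose and Stat6, Stat3, Jak1 and Jak3 fell, 1 and 4 of 8, against 13.7% called higher and 16.2% called lower. On loss of GLUT1/3 in Jak2WT cells only Stat6 was called, and it fell, against 7.62% called higher and 6.06% lower. The median difference over the 8 genes was -0.21 between backgrounds with intact transporters (0.0076 over all genes), 0.0029 between the dKO groups (-0.023), -0.30 for dKO in Jak2V617F (-0.019) and -0.16 for dKO in Jak2WT (0.0082). Each GLUT1/3 contrast shares libraries with each comparison between backgrounds, so those values are not independent, and each comparison's own values are given below.

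**Figure D2:**
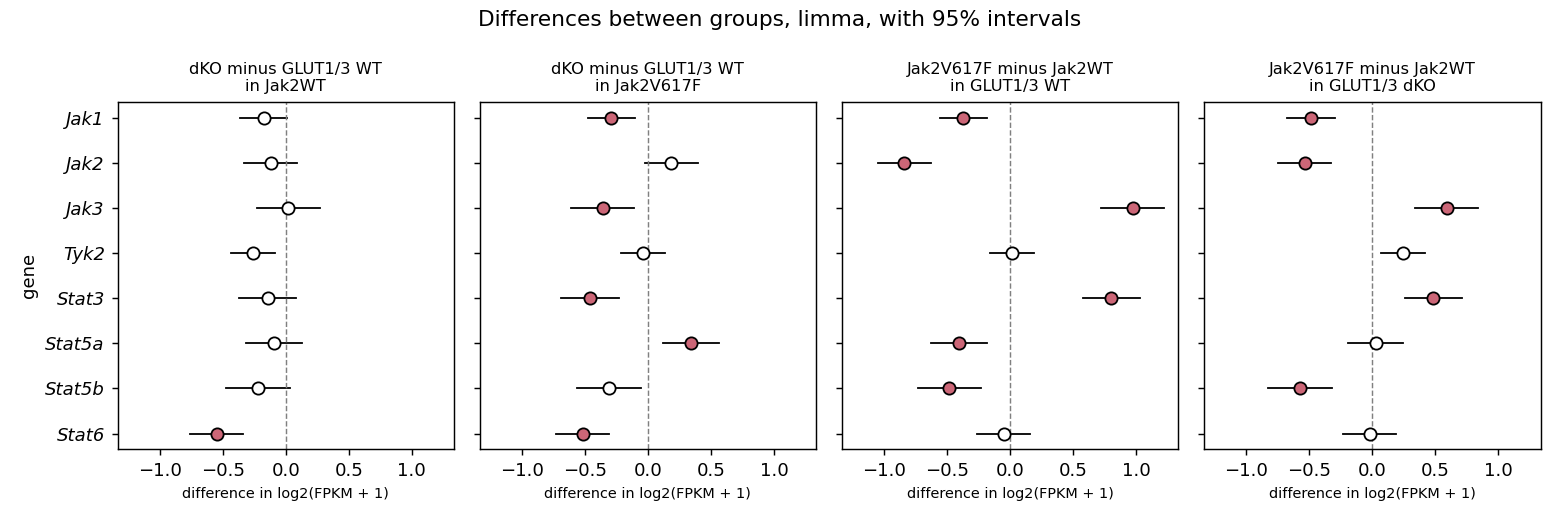
Differences in log2(FPKM + 1) (horizontal axis) for each gene (vertical axis) in the 4 comparisons, with 95% intervals from limma; filled points passed an adjusted p of 0.05 and open points did not. The largest filled differences were those of Jak3, Jak2 and Stat3 between the 2 backgrounds with intact transporters.

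The calls over all genes depended on how the libraries were scaled. With each library brought to the same summed FPKM, the share of calls that were higher moved from 50.7% to 29.4% between backgrounds with intact transporters, from 55.7% to 33.9% for dKO in Jak2WT and from 45.7% to 60.2% for dKO in Jak2V617F. In the first of these the median of all genes moved from 0.0076 to -0.12. Relative to that median, Jak2 stood at -0.87, Jak3 at 0.95, Stat3 at 0.77, Stat5b at -0.51, Stat5a at -0.42 and Jak1 at -0.40 on the log2 scale.

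Jak2 (ENSMUSG00000024789, mm39 chr19:29229228-29290480, plus strand), counted with its transgene, was at 258 and 243 FPKM in clones 1 and 3 of Jak2WT GLUT1/3 WT and at 218 and 244 FPKM in the Jak2WT dKO clones. It was at 140 and 139 FPKM in Jak2V617F GLUT1/3 WT and at 152 and 165 FPKM in Jak2V617F dKO. All 4 Jak2V617F clones were thus below all 4 Jak2WT clones, and within the Jak2WT background the dKO and GLUT1/3 WT clones overlapped. With intact transporters the log2 difference between backgrounds was -0.84 (SE 0.09, adjusted p 0.00120 with limma), a mean that fell by 44.3%, and the call held in all 15 alternative settings. Between dKO clones it was -0.54 (SE 0.09, adjusted p 0.00878), a call lost without Jak2WT dKO clone 3 (-0.46, adjusted p 0.0607). Loss of GLUT1/3 gave no call for Jak2, with -0.12 (95% interval -0.33 to 0.092) in Jak2WT and 0.18 (-0.026 to 0.40) in Jak2V617F, although voom, a limma method for read counts, called the second on the reads recovered from FPKM (0.28, adjusted p 0.0405). The direction of the Jak2 difference is that of endogenous and transduced transcripts together, and the number of integrated copies is not given in the sources used here.

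The genes around Jak2 on chromosome 19 were examined for a shared shift. Of 6 tested genes that start within 100 kb of it, 1 was called between backgrounds with intact transporters, namely Insl6, a relaxin-family peptide gene, which was higher by 1.04 (adjusted p 0.00269), against 15.3% of all tested genes called higher and 14.9% lower. Cd274 and Pdcd1lg2, which encode the PD-1 ligands, differed by 0.30 (adjusted p 0.0636) and -0.0055 (adjusted p 0.975), and neither was called there. With GLUT1/3 loss in Jak2V617F 1 of the 6 was called, Cd274, which fell by 0.37 (adjusted p 0.0339), against 13.7% of all tested genes called higher and 16.2% lower. Between the dKO groups 1 of the 6 was called, again Insl6, at 1.11 (adjusted p 0.00348), against 7.12% higher and 9.96% lower, while Jak2 itself was lower.

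Jak1 (ENSMUSG00000028530, mm39 chr4:101009564-101122479, minus strand) was highest in Jak2WT GLUT1/3 WT, at 40.7 and 41.0 FPKM, followed by Jak2WT dKO at 35.6 and 36.6 FPKM. It was at 32.8 and 30.0 FPKM in Jak2V617F GLUT1/3 WT and lowest in Jak2V617F dKO, at 26.4 and 24.6 FPKM. No 2 groups overlapped. The log2 difference between backgrounds was -0.37 with intact transporters (SE 0.08, adjusted p 0.0130, limma) and -0.49 between dKO clones (SE 0.08, adjusted p 0.00806). The first call was lost without Jak2V617F GLUT1/3 WT clone 3 (adjusted p 0.0561) or without Jak2WT GLUT1/3 WT clone 1 (0.0729) or clone 3 (0.0807), and the second without Jak2WT dKO clone 1 (0.0528) or clone 3 (0.0563). Jak1 fell by 0.29 on loss of GLUT1/3 in Jak2V617F cells (SE 0.08, adjusted p 0.0316). That call was lost in 9 of 15 alternatives, with adjusted p up to 0.132, including the fits without Jak2V617F GLUT1/3 WT clone 1 (0.132), without Jak2V617F dKO clone 3 (0.108) and without any 1 of the 4 Jak2WT clones (0.0567 to 0.0656). In Jak2WT the same contrast gave -0.17 (95% interval -0.36 to 0.013), called with same-total scaling (-0.27, adjusted p 0.0374) and with voom (-0.24, 0.0411), and the interaction was not called (-0.12, adjusted p 0.529).

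Jak3 (ENSMUSG00000031805, mm39 chr8:72128940-72143219, plus strand) rose between backgrounds where Jak1 and Jak2 fell. It was at 7.34 and 7.01 FPKM in Jak2WT GLUT1/3 WT and at 6.86 and 7.75 FPKM in Jak2WT dKO, groups that overlapped. In Jak2V617F it was at 13.9 and 16.2 FPKM with intact transporters and at 12.2 and 10.8 FPKM in dKO clones, all above every Jak2WT clone. The difference with intact transporters was 0.97 (SE 0.11, adjusted p 0.00129, limma), a 2.10-fold ratio of mean FPKM that held in all 15 alternatives. Between dKO clones it was 0.59 (SE 0.11, adjusted p 0.0114), a 1.57-fold ratio, lost without Jak2V617F dKO clone 1 (adjusted p 0.0527) or Jak2WT dKO clone 1 (0.0840). Jak3 fell by 0.36 on loss of GLUT1/3 in Jak2V617F cells (SE 0.11, adjusted p 0.0402), but 12 of 15 alternatives lost this call. Among them were the fits without Jak2V617F dKO clone 3 (0.144), without Jak2V617F GLUT1/3 WT clone 3 (0.165), without any 1 of the Jak2WT clones (0.0544 to 0.0690) and with the clone number as a replicate block (0.0574). Insl3 overlaps Jak3 on the same strand by 1362 bases and was at no more than 2.21 FPKM in any library.

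Tyk2 (ENSMUSG00000032175, mm39 chr9:21015364-21042539, minus strand) varied least of the 8 genes, 1.30-fold between its lowest and highest library. It was at 7.04 and 7.16 FPKM in Jak2WT GLUT1/3 WT, 5.61 and 5.91 FPKM in Jak2WT dKO, 7.28 and 7.12 FPKM in Jak2V617F GLUT1/3 WT and 7.17 and 6.81 FPKM in Jak2V617F dKO. The Jak2WT dKO clones were the 2 lowest. No comparison called it. The largest difference was the dKO contrast in Jak2WT, at -0.26 (95% interval -0.44 to -0.086, adjusted p 0.0590, limma), and scaling to the same total (0.0273) or voom on recovered reads (0.0199) brought it past the threshold. Between dKO groups it was 0.24 higher in Jak2V617F (adjusted p 0.0687), and median-ratio scaling (0.0473) and voom (0.0259) called this.

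Together the 4 JAK genes summed to 266 to 314 FPKM in Jak2WT clones and to 193 to 208 FPKM in Jak2V617F clones. Jak2 made up 81.5% to 82.9% of that sum in the Jak2WT groups, 72.1% to 72.3% in Jak2V617F GLUT1/3 WT and 76.9% to 79.7% in Jak2V617F dKO. The Jak2 to Jak1 ratio was 5.92 to 6.66 in Jak2WT, 4.26 to 4.64 in Jak2V617F GLUT1/3 WT and 5.76 to 6.72 in Jak2V617F dKO, where it overlapped the Jak2WT groups.

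**Figure D3:**
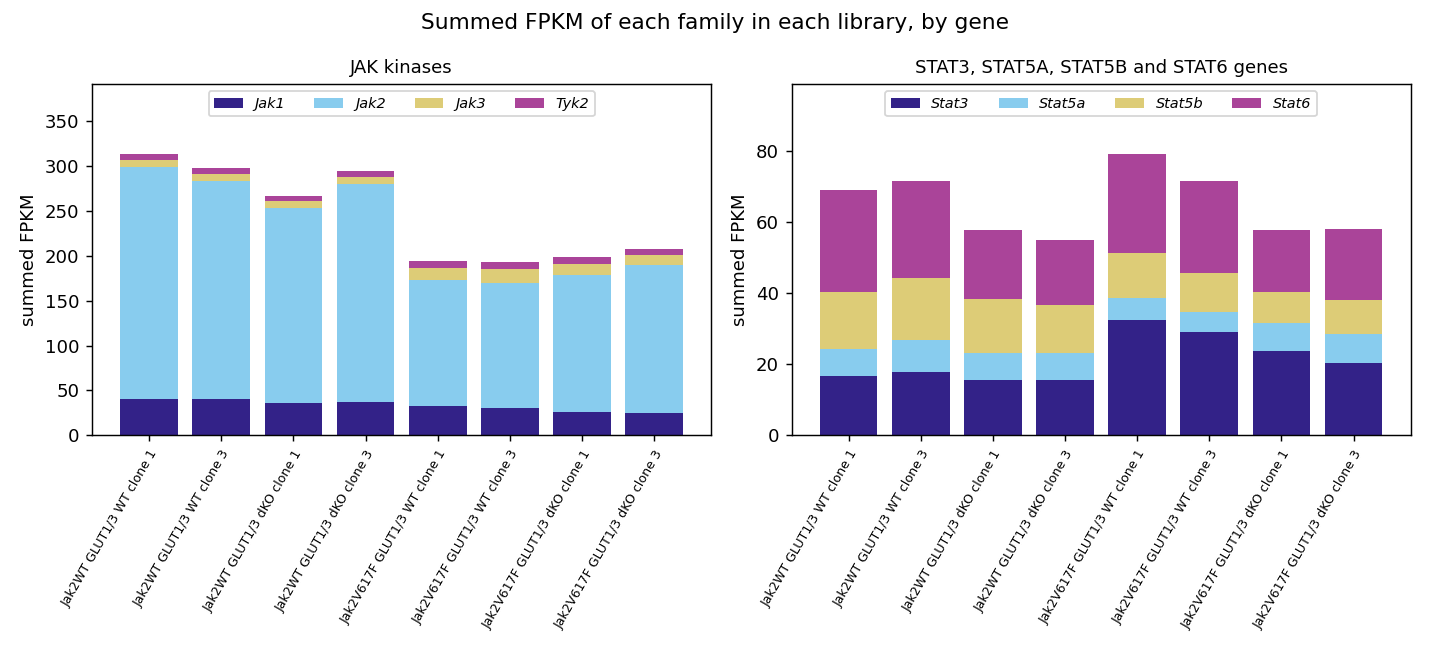
Summed FPKM (vertical axis, from 0) of the 4 JAK genes (left) and of Stat3, Stat5a, Stat5b and Stat6 (right) in each library, with a color per gene. The Jak2 share was smaller in the 2 Jak2V617F GLUT1/3 WT clones (72.1% and 72.3%), and Stat3 took 35.3% to 41.0% of the STAT sum in the 4 Jak2V617F clones and 24.1% to 28.2% in the 4 Jak2WT clones.

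STAT3 carries signals of the IL-6 family and of G-CSF. Stat3 (ENSMUSG00000004040) was at 16.6 and 17.7 FPKM in Jak2WT GLUT1/3 WT and at 15.4 and 15.5 FPKM in Jak2WT dKO. It was at 32.4 and 29.0 FPKM in Jak2V617F GLUT1/3 WT and at 23.7 and 20.5 FPKM in Jak2V617F dKO. All Jak2V617F clones were above all Jak2WT clones, and the dKO clones were the lower ones within each background. With intact transporters Stat3 rose by 0.80 in Jak2V617F (SE 0.10, adjusted p 0.00177, limma), a 1.79-fold ratio of mean FPKM, and all 15 alternatives kept the call. Between dKO clones it rose by 0.48 (SE 0.10, adjusted p 0.0160), lost in 4 alternatives, namely without Jak2V617F dKO clone 1 (0.0656), Jak2WT dKO clone 1 (0.0923) or clone 3 (0.0796), and with only the 2 groups in the fit (0.0514). On loss of GLUT1/3 in Jak2V617F it fell by 0.46 (SE 0.10, adjusted p 0.0126), lost without Jak2V617F GLUT1/3 WT clone 1 (0.0638) and with only the 2 groups fitted (0.0683). In Jak2WT the dKO contrast was -0.14 (95% interval -0.37 to 0.085), and the interaction, -0.32 (adjusted p 0.171), was not called.

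STAT5A and STAT5B are the STATs that the IL-3 and erythropoietin receptors use most. Their genes and Stat3 lie side by side on chromosome 11 (mm39), Stat5b at chr11:100671557-100741550 on the minus strand, Stat5a at chr11:100750177-100775995 on the plus strand and Stat3 at chr11:100775924-100830366 on the minus strand. The ends of Stat5a and Stat3 overlap by 72 bases on opposite strands, and the strand setting of the counting was not given. Stat5b (ENSMUSG00000020919) was at 16.1 and 17.5 FPKM in Jak2WT GLUT1/3 WT, 15.0 and 13.6 in Jak2WT dKO, 12.8 and 10.7 in Jak2V617F GLUT1/3 WT and 8.88 and 9.73 in Jak2V617F dKO. No 2 groups overlapped, and the Jak2V617F clones were the lower 4. The log2 difference between backgrounds was -0.48 with intact transporters (SE 0.11, adjusted p 0.0147, limma) and -0.57 between dKO clones (SE 0.11, adjusted p 0.0131). The first was lost without Jak2V617F GLUT1/3 WT clone 3 (0.0651) or Jak2WT GLUT1/3 WT clone 1 (0.0520) or clone 3 (0.0966), and the second without Jak2V617F dKO clone 1 (0.0609) or Jak2WT dKO clone 1 (0.0923). The dKO contrasts, -0.22 in Jak2WT (adjusted p 0.213) and -0.31 in Jak2V617F (adjusted p 0.0672), were not called, although same-total scaling called the first (-0.31, 0.0465) and the second was called without Jak2V617F GLUT1/3 WT clone 3 (-0.43, adjusted p 0.0426).

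Stat5a (ENSMUSG00000004043) had another order of groups than its paralog. It was at 7.59 and 9.08 FPKM in Jak2WT GLUT1/3 WT, 7.86 and 7.61 in Jak2WT dKO, 6.17 and 5.86 in Jak2V617F GLUT1/3 WT and 7.81 and 7.97 in Jak2V617F dKO. Only the Jak2V617F GLUT1/3 WT clones stood apart, below the other 6. With intact transporters the difference of Jak2V617F from Jak2WT was -0.41 (SE 0.09, adjusted p 0.0166, limma), lost without Jak2V617F GLUT1/3 WT clone 1 (0.0503) or clone 3 (0.0691) or Jak2WT GLUT1/3 WT clone 3 (0.115). On loss of GLUT1/3 in Jak2V617F it rose by 0.34 (SE 0.09, adjusted p 0.0319), a 1.31-fold ratio of mean FPKM. This call was lost in 8 of 15 alternatives, in the fits without any 1 of the 4 Jak2V617F clones (0.0731 to 0.112) or of the 2 Jak2WT dKO clones (0.0556 and 0.0558), with no filter (0.0707) and with only the 2 groups fitted (0.0823). The interaction for Stat5a, 0.43 (95% interval 0.12 to 0.75), had an unadjusted p of 0.0131 and an adjusted p of 0.0792 in limma. As a share of Stat5a and Stat5b together, Stat5a was 32.0% to 35.9% in the other 3 groups and 45.0% to 46.8% in Jak2V617F dKO. The Stat3 to Stat5 ratio (Stat5a plus Stat5b) was 0.666 to 0.730 in Jak2WT clones, 1.70 to 1.75 in Jak2V617F GLUT1/3 WT and 1.16 to 1.42 in Jak2V617F dKO.

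STAT6 is the main STAT of IL-4 and IL-13. Stat6 (ENSMUSG00000002147, mm39 chr10:127478855-127496826, plus strand) was at 28.7 and 27.3 FPKM in Jak2WT GLUT1/3 WT and at 27.8 and 26.1 FPKM in Jak2V617F GLUT1/3 WT, and the 2 groups overlapped. It was at 19.4 and 18.3 FPKM in Jak2WT dKO and at 17.4 and 19.8 FPKM in Jak2V617F dKO, which also overlapped. All 4 dKO clones were below all 4 clones with intact transporters. The Stat6 difference on loss of GLUT1/3 was -0.55 in Jak2WT (SE 0.09, adjusted p 0.0124, limma) and -0.52 in Jak2V617F (SE 0.09, adjusted p 0.00600), and mean FPKM fell by 32.6% and by 31.0%. The call in Jak2V617F held in all 15 alternatives (adjusted p up to 0.0446). The call in Jak2WT was lost whenever 1 of the 4 clones compared was left out, without Jak2WT dKO clone 1 (0.0649) or clone 3 (0.0734) and without Jak2WT GLUT1/3 WT clone 1 (0.0967) or clone 3 (0.0727). Between backgrounds Stat6 differed by -0.050 (95% interval -0.26 to 0.16) with intact transporters and by -0.020 (-0.23 to 0.19) in dKO clones. Nab2 overlaps the end of Stat6 by 40 bases on the other strand and was at no more than 6.30 FPKM.

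Whether the effect of GLUT1/3 loss differed between backgrounds was tested directly with the interaction term. For 0 of the 8 genes was it called in limma, against 4.72% of all tested genes higher and 5.91% lower. At an unadjusted p under 0.05 there were 3, Stat5a (0.43, p 0.0131), Jak3 (-0.38, p 0.0373) and Jak2 (0.30, p 0.0470), while 30.2% of all tested genes were under that threshold. Voom on the recovered reads called 2, Jak2 (0.46, adjusted p 0.0378) and Stat5a (0.63, adjusted p 0.0156), both higher, against 11.3% of all tested genes. Scaling to the same total called Stat5a alone (0.60, adjusted p 0.0232), moved the median of all genes from -0.039 to 0.12 and the share of higher calls from 44.4% to 75.0%. Relative to that median Stat5a stood at 0.48.

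Of the other STAT genes, Stat2, whose protein acts in the type I interferon response, fell on GLUT1/3 loss in Jak2WT and rose in Jak2V617F. It was at 9.08 and 8.23 FPKM in Jak2WT GLUT1/3 WT and 6.23 and 5.99 in Jak2WT dKO, a difference of -0.44 (adjusted p 0.0157, limma, lost in 4 of 15 alternatives). In Jak2V617F it was at 7.37 and 7.12 FPKM and rose to 9.27 and 9.43 in dKO clones (0.33, adjusted p 0.0196, also lost in 4 of 15). The interaction was 0.77 (adjusted p 0.0139). Stat4 was at 0.68 to 2.05 FPKM in Jak2WT and at most 0.074 FPKM in any Jak2V617F clone. It passed the filter only through Jak2WT clones, so a lower level in Jak2V617F was fixed in part by the filter.

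Among cytokine receptor genes, 12 of 23 listed were tested. With intact transporters 6 rose and 2 fell in Jak2V617F, where 15.3% of all tested genes were called higher and 14.9% lower. With GLUT1/3 loss in Jak2V617F 1 rose and 7 fell, against 13.7% and 16.2% of all tested genes. In Jak2WT 0 were called in limma, against 7.62% and 6.06%. At an unadjusted p under 0.05 there were 1 higher and 4 lower in Jak2WT, against 16.8% and 14.8% of all tested genes, and voom called 4 lower, against 13.5%. The 6 that rose were 3 without Jak2V617F GLUT1/3 WT clone 1 and 2 without Jak2WT GLUT1/3 WT clone 3, and with same-total scaling 4 rose and 5 fell. The 2 that fell were 0 without any 1 of the 4 clones compared. On GLUT1/3 loss in Jak2V617F the 1 that rose, Il21r, passed the filter only through dKO clones and was lost without either Jak2V617F GLUT1/3 WT clone or Jak2V617F dKO clone 3. Between the dKO groups 1 was higher in Jak2V617F (Epor) and 5 were lower (Csf2rb, Csf2rb2, Ifnar1, Ifngr1 and Ifngr2), against 7.12% and 9.96% of all tested genes, and the 5 were 2 without Jak2WT dKO clone 1 and 3 without Jak2WT dKO clone 3. Csf2rb and Csf2rb2, the beta chains of the IL-3 receptor through which JAK2 acts, had the largest falls of the 7 in Jak2V617F. Csf2rb was at 162 to 190 FPKM in Jak2WT GLUT1/3 WT, 114 to 150 in Jak2WT dKO, 127 to 131 in Jak2V617F GLUT1/3 WT and 48.9 to 55.4 in Jak2V617F dKO, where it fell by 1.29 (adjusted p 0.00126). Il4ra, the chain through which IL-4 reaches STAT6, fell by 1.04 in the same contrast (adjusted p 0.000713). Both calls held in 15 of 15 alternatives.

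The SOCS genes encode a family of signalling inhibitors, and 8 of them were tested. STATs induce several of the family, which in turn block JAKs. With intact transporters Socs1 fell by 1.66 in Jak2V617F (adjusted p 0.00200, limma), from 2.36 and 3.43 to 0.14 and 0.31 FPKM, with the other 7 not called, against 14.9% of all tested genes called lower. On loss of GLUT1/3 in Jak2V617F 3 rose and 1 fell, against 13.7% and 16.2% of all tested genes. Socs1 rose by 0.95 (adjusted p 0.0143, lost in 3 of 15 alternatives), Socs3 by 0.91 (0.0231, lost in 4) and Cish by 0.48 (0.0256, lost in 5), and Socs7 fell by 0.32 (0.0378, lost in 10). The number that rose was 0 without Jak2V617F dKO clone 1, 1 without either Jak2V617F GLUT1/3 WT clone and 0 with no expression filter. Cish was at 15.1 and 16.7 FPKM in Jak2V617F GLUT1/3 WT and at 25.3 and 20.2 FPKM in its dKO clones. In Jak2WT Cish went from 18.7 and 18.8 FPKM to 27.1 and 23.2 FPKM (0.40, adjusted p 0.0741, limma). Its interaction was 0.082 (adjusted p 0.796). On GLUT1/3 loss in Jak2WT 1 SOCS gene rose and 0 fell, against 7.62% and 6.06% of all tested genes. It was Socs6 (0.70, adjusted p 0.0370, lost in 7 of 15 alternatives).

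Genes that STAT5 is known to induce were taken from general knowledge. Of 18 tested, 7 rose and 2 fell in Jak2V617F with intact transporters, against 15.3% and 14.9% of all tested genes. After GLUT1/3 loss 5 rose and 5 fell in Jak2V617F, against 13.7% and 16.2%, and 3 rose in Jak2WT, against 7.62%. Between the dKO groups 3 were higher and 5 lower in Jak2V617F, against 7.12% and 9.96%. These counts moved with single clones. The 7 became 3 without Jak2V617F GLUT1/3 WT clone 1 or Jak2WT GLUT1/3 WT clone 1 and 4 without Jak2WT GLUT1/3 WT clone 3, and the 5 that fell became 0 without Jak2V617F GLUT1/3 WT clone 1 and 2 without its clone 3 or without Jak2V617F dKO clone 3, and 3 without Jak2V617F dKO clone 1 or either Jak2WT GLUT1/3 WT clone. The 5 that rose became 2 without Jak2V617F dKO clone 1 or Jak2V617F GLUT1/3 WT clone 3 and 3 without Jak2V617F GLUT1/3 WT clone 1. In Jak2WT the 3 that rose became 0 without Jak2WT GLUT1/3 WT clone 3, 1 without any 1 of the other 3 Jak2WT clones, 6 without either Jak2V617F dKO clone or in voom, and 8 when only the 2 groups compared were fitted. Between the dKO groups 1 was higher and 2 lower without Jak2WT dKO clone 1, 2 were higher and 4 lower without Jak2WT dKO clone 3 or Jak2V617F dKO clone 1, and 6 were higher without Jak2V617F dKO clone 3. Bcl2l1, which encodes the survival protein BCL-XL, rose by 1.25 in Jak2V617F with intact transporters (adjusted p 0.00340) and by 1.26 between dKO groups (0.00529), and Pim1, a survival kinase gene, rose by 0.70 (0.00241) in the first and not in the second (0.094, 0.537). Il2ra, the IL-2 receptor alpha chain, was at 18.4 to 59.3 FPKM in Jak2WT clones and at 0.07 to 0.99 FPKM in Jak2V617F clones, so that it passed the filter only through Jak2WT. Of 12 STAT3 targets tested, some of them also on the STAT5 list, 5 rose and 0 fell in Jak2V617F with intact transporters (limma, with 1 lower at an unadjusted p under 0.05 and 1 called lower by voom, against 20.9% and 22.5% of all tested genes), among them Cebpb (1.20, adjusted p 0.00357) and Gadd45g (1.15, 0.00262). Limma called 15.3% of all tested genes higher and 14.9% lower there. On GLUT1/3 loss in Jak2V617F 1 rose (Socs3) and 6 fell, against 13.7% and 16.2%, Vegfa by 0.86 (0.00131), Tnfrsf1a by 0.63 (0.00144) and Il4ra, already given, among them. The 6 were 3 without Jak2V617F GLUT1/3 WT clone 1, and the 5 above were 3 without that clone or Jak2WT GLUT1/3 WT clone 3. Of 14 STAT6 targets listed 3 passed the filter, and on GLUT1/3 loss in Jak2V617F 2 of them rose, Socs1 and Cish, and 1 fell, Il4ra, against 13.7% and 16.2% of all tested genes. The 2 were 0 without Jak2V617F dKO clone 1 or Jak2V617F GLUT1/3 WT clone 1, 1 without Jak2V617F GLUT1/3 WT clone 3 and 0 with no expression filter. Of 14 genes that restrain the pathway, such as phosphatases, 1 rose (Usp18, which passed the filter only through dKO clones) and 3 fell in that contrast, where 13.7% of all tested genes were called higher and 16.2% lower. Ptprc, which encodes the phosphatase CD45, fell by 1.66 (adjusted p 0.000360) and held in 15 of 15 alternatives. The other calls were Pias4, which fell by 0.24 (adjusted p 0.0492, lost in 15 of 15), and Ptpn2, which fell by 0.31 (adjusted p 0.0495, lost in 13 of 15). Over the alternatives the number that rose was 1 to 4, with 4 in voom, which called 19.9% of all tested genes higher. Of 8 positive adaptors 0 rose and 1 fell against 13.7% and 16.2% (limma, with 1 and 2 at an unadjusted p under 0.05, against 19.5% and 23.1%, and 2 higher by voom, against 19.9%).

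Targets of the interferon response, a list that also holds Stat2, had 13 of 19 listed genes tested. Of these, 6 passed the expression filter only through dKO clones (Irf7, Ifit1, Mx1, Oasl2, Usp18 and Xaf1, with Ifit1, Mx1 and Oasl2 only through Jak2V617F dKO), so a higher level in dKO was fixed in part by the filter. Of the other 7, 7 rose in Jak2V617F, while 4 rose and 1 fell in Jak2WT. With no filter 11 of the 19 rose in Jak2V617F, and 5 rose and 1 fell in Jak2WT. The share of all genes called with no filter was not counted, so these counts have no background to be read against. Of all 13 tested, 12 rose and 0 fell in Jak2V617F (limma, with 13 higher and 0 lower at an unadjusted p under 0.05, where 19.5% and 23.1% of all tested genes were, and 12 and 0 called by voom, which called 19.9% and 13.6%), against 13.7% and 16.2% of all tested genes in limma. In Jak2WT 8 rose and 1 fell, Stat2, against 7.62% and 6.06%. In Jak2V617F the number that rose was 8 to 12 over the alternatives, with 8 without dKO clone 3 or GLUT1/3 WT clone 1. In Jak2WT it was 0 without GLUT1/3 WT clone 1, 2 without its clone 3, 1 without dKO clone 1 and 2 without dKO clone 3. Isg15, a ubiquitin-like antiviral protein, was at 1.20 and 1.05 FPKM in Jak2V617F GLUT1/3 WT and 4.71 and 8.97 FPKM in its dKO clones (1.83, adjusted p 0.00190). In Jak2WT it was at 0.93 and 1.15 FPKM and 3.83 and 3.72 FPKM (1.23, adjusted p 0.0187, lost in 5 of 15 alternatives).

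**Figure D4:**
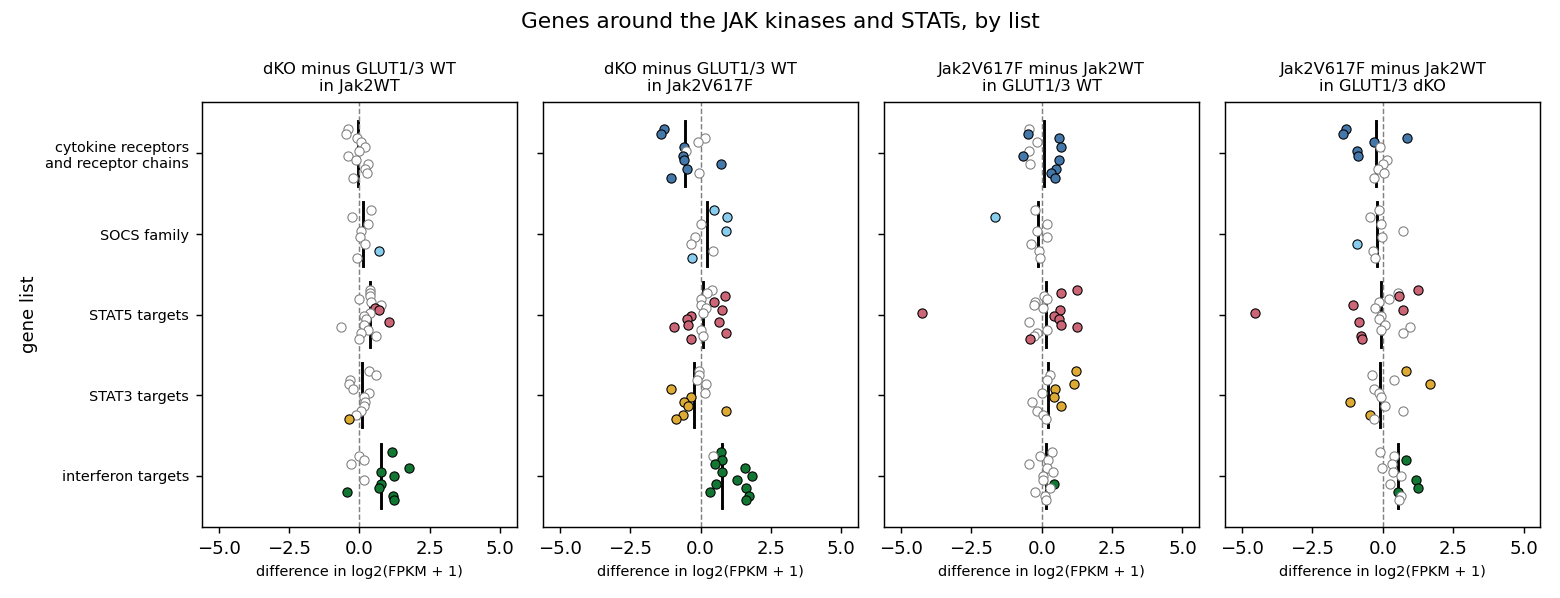
Differences in log2(FPKM + 1) (horizontal axis) of the tested genes of 5 lists (vertical axis) in the 4 comparisons; filled points passed an adjusted p of 0.05 in limma, and black bars are list medians. Interferon targets lay mostly to the right in both dKO contrasts, 6 of the 13 having passed the filter only through dKO clones, and the far left points between backgrounds are Il2ra.

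The promoters were searched for TTCNNNGAA, letters that dimers of several STATs prefer and that read the same on both strands. Other spacings of TTC and GAA were not searched. GAAANNGAAA, the core of the interferon-stimulated response element, was searched on both strands. RefSeq windows (GRCm38.p6) from 250 bases before to 50 after the start were used, and all 8 genes matched, with 10 windows. TTCNNNGAA was in 0 of these 10 windows and in 8.30% of the 32851 windows of all genes. GAAANNGAAA was likewise in 0 of 10 and in 3.44% of all windows, and it was in 10 of 20 windows of the interferon target list. The windows of Cish and of Isg15 are shown because both genes rose on GLUT1/3 loss in Jak2V617F and hold several matches, in capitals. Cish holds 2 matches of TTCNNNGAA, and Isg15 holds 3 of GAAANNGAAA that overlap each other. The Cish window is chr9:107296409-107296708 on the plus strand and the Isg15 window chr4:156200769-156201068 on the minus strand. A match of letters is no evidence that a factor was bound.
Cish: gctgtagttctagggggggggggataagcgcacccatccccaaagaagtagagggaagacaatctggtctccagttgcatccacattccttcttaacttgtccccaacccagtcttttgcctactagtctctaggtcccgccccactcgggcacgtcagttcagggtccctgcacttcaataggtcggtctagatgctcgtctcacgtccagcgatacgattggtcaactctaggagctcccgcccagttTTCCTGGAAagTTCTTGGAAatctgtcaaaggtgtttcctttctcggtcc
Isg15: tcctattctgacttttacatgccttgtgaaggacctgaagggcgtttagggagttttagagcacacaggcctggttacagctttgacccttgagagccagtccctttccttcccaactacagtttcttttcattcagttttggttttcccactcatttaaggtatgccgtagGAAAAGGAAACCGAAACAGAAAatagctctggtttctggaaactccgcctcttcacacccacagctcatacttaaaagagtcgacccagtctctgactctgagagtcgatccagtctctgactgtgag

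Across the 8 libraries the tested gene most like each of 7 of the genes in log2(FPKM + 1) was Clip1 for Jak1 (Pearson r 0.995), Nprl2 for Jak3 (0.996), Ift140 for Tyk2 (0.977), Lat for Stat3 (0.996), Cndp2 for Stat5a (0.982), Snx4 for Stat5b (0.989) and Gm10524 for Stat6 (0.988). These are the highest of 11818 values over 8 points that share libraries, clones and scaling, and serve as a description.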

How the data were processed

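Bulk RNA was sequenced from 8 libraries, 2 clones in each of 4 groups. Per the labels and the study's methods, the authors trimmed reads with fastp 1.0.1, aligned them to mm39 with HISAT2 2.2.1, counted genes with featureCounts 2.0.6 and deposited FPKM, scaled by gene length and library size. The annotation release and the strand setting are not given in the sources used here. FPKM times gene length was a whole multiple of 1 step (tolerance 0.01 of it) for 100% of values, which gave back the reads, 16846011 to 48884329 per library.

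FPKM was transformed as log2(FPKM + 1), which understates changes of low genes. The 11818 genes that reached FPKM 1 in 2 libraries or more entered limma 3.58.1 in R 4.3.3, with 1 mean per group, a trended empirical Bayes variance and Benjamini-Hochberg adjustment over all of them. All 4 groups shared 1 estimate of the spread (4 residual and 3.34 prior degrees of freedom). With 2 against 2 clones an exact two-sided permutation test cannot go below p = 0.333, so p-values rest on that shared spread. It measures differences between clones of a group, which may share a founder, and may not measure differences between separately transduced or edited lines. The 2 clones of each group were different libraries (chi-square per gene 6.64 to 27.1, against 1 for counting noise). Clone numbers do not pair the groups (correlations of deviations -0.25 to 0.15). Alternatives were a pseudocount of 0.1, no filter, 2 other scalings, voom on the recovered reads, only the groups compared, the clone number as a block, and leaving out each library.

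The 8 genes and the pathway and marker lists were chosen with earlier results of these data known. Genes named beside them were the edited genes, genes on the lists (first those with the largest called differences), overlapping and neighboring genes, and the genes most alike over the libraries. Some genes are not reported here.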

Additional observations from a re-analysis of the deposited data

Results flagged for a closer look

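None of the 8 JAK and STAT genes had a GLUT1/3 effect that differed between backgrounds by the adjusted interaction test, but 14 of 78 tested genes of the pathway lists did in limma, 3 higher and 11 lower, against 4.72% and 5.91% of all tested genes. Values are the dKO difference in Jak2V617F minus that in Jak2WT on the log2 scale. The interaction was positive for Socs1 (1.21, adjusted p 0.0447), Oasl2 (0.92, 0.0383) and Stat2 (0.77, 0.0139). Oasl2 entered the test only through the 2 Jak2V617F dKO clones, at 3.15 and 3.27 FPKM, and its positive value was therefore fixed in part by the filter. It was negative for the receptor genes Csf2rb2 (-0.94, 0.0360), Csf2rb (-0.87, 0.0401), Ifnar2 (-0.81, 0.0178) and Il4ra (-0.80, 0.0188), for the phosphatase genes Ptprc (-1.14, 0.0124) and Dusp3 (-0.63, 0.0362), and for the STAT targets Nfil3 (-0.80, 0.0319), Myc (-0.72, 0.0248), Pim1 (-0.61, 0.0331), Mcl1 (-0.52, 0.0462) and Tnfrsf1a (-0.52, 0.0275). All 14 calls were lost under at least 2 alternatives. Of 14 alternatives, Ptprc was lost in 2, Stat2 in 3, Il4ra and Ifnar2 in 5, and Myc and Nfil3 in 6. Tnfrsf1a was lost in 8, Csf2rb, Csf2rb2, Dusp3 and Pim1 in 9, Socs1 in 10 and Mcl1 in 11. Oasl2 was lost in 10 of 12. Each of these 14 values draws on the same 8 libraries.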

How the results depend on the processing

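The number of the 8 genes called moved by over 1.5 times as follows. For dKO in Jak2WT it went from 1 to 4 with same-total scaling and to 3 with voom. For dKO in Jak2V617F it went from 5 to 3 with same-total scaling, 3 with no filter and 1 with only the 2 groups fitted. For the interaction it went from 0 to 1 with same-total scaling and 2 with voom. Voom called 8.61% of all tested genes higher and 13.5% lower for dKO in Jak2WT, and 11.3% and 4.86% for the interaction. Same-total scaling moved the median of all genes for dKO in Jak2WT from 0.0082 to -0.074. For dKO in Jak2V617F that median moved from -0.019 to 0.055. The share of all genes called was not counted in the other alternative fits, so their counts cannot be set against it. Leaving out 1 library gave 0 to 1 calls for dKO in Jak2WT, 2 to 4 for dKO in Jak2V617F, 3 to 6 between backgrounds with intact transporters, 1 to 5 between dKO groups and 0 for the interaction. A fit that leaves 1 clone in a group assumes that it varies like the others. With the clone number as a replicate block 4 genes were called for dKO in Jak2V617F, since Jak3 was lost (adjusted p 0.0574), and no other call on the 8 genes changed. The numbers name clones and do not pair them. Voom called 2615 genes against 1617 for dKO in Jak2WT and 1908 against 1256 for the interaction.

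Of 592 single-gene values under the alternatives, 502 kept their direction and side of the threshold, 55 lost a call, 12 gained one and 23 changed sign, all of the last in differences that were not called. With same-total scaling the reversed values were 0.072 for Jak1 and 0.089 for Stat5b (interaction), -0.066 for Jak3 (dKO in Jak2WT), 0.043 for Tyk2 (dKO in Jak2V617F), -0.12 for Tyk2 (between backgrounds, intact transporters) and 0.017 for Stat6 (between dKO groups). With voom the same 6 stood at 0.038, 0.051, -0.038, 0.053, -0.089 and 0.024, and median-ratio scaling gave 0.0075 for the last. Leaving out 1 library at a time gave -0.056 to 0.099 for Jak3 and -0.21 to 0.024 for Stat5a (dKO in Jak2WT), -0.21 to 0.028 for Stat5b and -0.060 to 0.12 for Stat6 (interaction), and -0.11 to 0.071 for Stat6 between dKO groups. The cause was not tested. Of 126 calls on pathway genes 42 held in every alternative, 84 were lost in at least 1, and 0 reversed.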
